A study of Homo sapiens with 36 samples.

Results

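The monocarboxylate transporter genes were followed in THP-1 cells, a human monocytic leukaemia line, across 12 conditions of carbon dioxide, lipopolysaccharide (LPS) and NR4A knockdown. The 10 genes described were SLC16A1, SLC16A3, SLC16A4, SLC16A5, SLC16A6, SLC16A7, SLC16A9, SLC16A10, SLC16A13 and BSG, of 57500 gene IDs in the count files. They were picked by symbol as relatives of SLC16A9, which was itself picked because it stood among the genes most raised by 10% CO2. The CO2 difference of SLC16A9 is therefore described without a test, while its LPS and knockdown differences and all differences of the other 9 genes were tested. All 10 passed the filter on low counts that left 17720 genes to test.

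RNA was sequenced from 3 shRNA lines, each in 4 states with 3 replicates, giving 36 libraries. shNT cells carried a non-targeting shRNA, shNR4A2 cells an shRNA against NR4A2 and shNR4A3 cells an shRNA against NR4A3, so every group, controls included, carried an shRNA. Cells stayed for 4 h in pH-buffered medium equilibrated with 5% CO2 or 10% CO2, and LPS-stimulated groups received 2.5 µg/mL LPS for the final 2 h. Each shRNA was represented by 1 stable line, so the knockdown and the line that carries it cannot be told apart. The labels number the replicates, and the study's figure legends describe its data as coming from individual experiments. Libraries held 16171161 to 23929138 counts. The 10 monocytic markers all had a median of at least 1 TPM, a share of all transcripts that allows for gene length, with summed levels of 971.5 to 3387 TPM. The T cell, erythroid, epithelial and fibroblast marker sets each summed to less than 2 TPM in every library, while the B cell set summed to 1.99 to 6.77 TPM, with CD79A at a median of 1.54 TPM. NR4A2 was lower in shNR4A2 than in shNT cells in 4 of 4 states, with log2 differences of -0.91 to -1.67. NR4A3 was lower in shNR4A3 cells in 3 of 4 states, and in the basal state at 10% CO2 its log2 difference was -0.39 (SE 0.49), which did not pass the test (edgeR, adjusted p = 0.736). With 10% CO2 and LPS the other NR4A gene also differed, NR4A3 being 0.57 higher in shNR4A2 cells (adjusted p = 0.00296) and NR4A2 0.32 lower on the log2 scale in shNR4A3 cells (log2 -0.32, adjusted p = 0.0166), and the part of either in the results was not tested.

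The SLC16 family encodes membrane carriers named for their first known members, which move lactate, pyruvate and ketone bodies across the plasma membrane together with a proton. SLC16A1 (MCT1), SLC16A7 (MCT2) and SLC16A3 (MCT4) are such proton-linked carriers, and SLC16A3 is best known for lactate export from glycolytic cells, including activated macrophages. BSG encodes basigin (CD147), a chaperone that SLC16A1 and SLC16A3 need to reach the cell surface. Other relatives carry different cargo: SLC16A9 (MCT9) is linked to carnitine and creatine transport, and SLC16A10 (TAT1) carries aromatic amino acids.

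The sequence before a RefSeq start of SLC16A9 is shown because this gene responded to both CO2 and LPS, and that of SLC16A3 because it was the other SLC16 gene raised by LPS. RefSeq promoter windows on GRCh38.p14 were found for 6 of the 10 genes (SLC16A3, SLC16A4, SLC16A7, SLC16A9, SLC16A10 and BSG), with no entry for SLC16A1, SLC16A5, SLC16A6 and SLC16A13. The SLC16A9 window, chr10:59710080-59710329 on the minus strand, covers the 250 bases before the RefSeq start and held no annotated exon. It lies within the span given for the gene in the count files (chr10:59650761-59736002), in an intron of a longer SLC16A9 transcript, so it and its E-box are upstream of that start only, and the SLC16A7 window likewise lies within its gene. The SLC16A3 window, chr17:82228185-82228396 on the plus strand, was shortened by 38 bases where annotated exons begin. Capitals mark the E-box CACGTG, a palindrome known as the binding sequence of MYC and USF proteins.
SLC16A9: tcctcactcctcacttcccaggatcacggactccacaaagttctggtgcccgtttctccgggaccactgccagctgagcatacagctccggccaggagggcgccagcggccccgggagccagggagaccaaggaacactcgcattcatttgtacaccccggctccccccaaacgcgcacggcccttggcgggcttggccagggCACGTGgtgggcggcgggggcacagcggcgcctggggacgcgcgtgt
SLC16A3: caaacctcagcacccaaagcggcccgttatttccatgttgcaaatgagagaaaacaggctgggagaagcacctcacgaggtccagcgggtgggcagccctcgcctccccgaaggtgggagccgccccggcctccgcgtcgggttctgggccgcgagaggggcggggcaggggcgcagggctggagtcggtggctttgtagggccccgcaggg
The SLC16A9 window held 1 CACGTG, starting 47 bases before the start site, a motif found in 6.49% of the 27305 upstream windows of the same length. The hypoxia response core ACGTG lies within CACGTG on both strands and was found in 18.7% of all windows. Among the 6 windows only those of SLC16A9 and SLC16A10 held ACGTG. None of the 6 held the ETS motif CCGGAAGT, the NR4A monomer motif AAAGGTCA or the CRE motif TGACGTCA on either strand, which were found in 3.64%, 1.05% and 1.77% of all windows. SLC16A3 and SLC16A9 windows were both 68.4% G and C over their 250 bases, and that of SLC16A7 35.2%, beside a median of 58% over all windows. These matches describe the letters in the windows, not binding.

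BSG, SLC16A3 and SLC16A1 were the most abundant of the 10 genes, and the lactate carriers SLC16A7 and SLC16A13 lay far below them. Levels between genes are compared in TPM, which divides by gene length. In shNT cells at 5% CO2 without LPS, BSG stood at 720.7 ± 38.8 TPM, SLC16A3 at 224.7 ± 29.9 TPM and SLC16A1 at 54.1 ± 6.16 TPM (SD, n = 3). The next level was that of SLC16A5 (MCT6), a carrier of drugs such as bumetanide, at 14.3 ± 1.66 TPM. Over all 36 libraries the ranges of these 4 genes did not overlap. SLC16A13 (MCT13), a lactate carrier, and SLC16A7 followed at 5.08 ± 0.216 and 4.51 ± 1.02 TPM, and SLC16A10 and SLC16A9 at 1.37 ± 0.0320 and 1.29 ± 0.443 TPM. The ranges of SLC16A13, SLC16A7 and SLC16A9 over the 36 libraries overlapped, and no single order held over all conditions. In shNT cells at 10% CO2 with LPS, SLC16A9 stood at 9.94 TPM, above SLC16A7 at 3.70 TPM and SLC16A13 at 2.45 TPM. The orphan carrier SLC16A4 (MCT5) stood at 1.14 ± 1.15 TPM on 5 to 41 counts per library, and SLC16A6 (MCT7), linked to ketone body export in liver, at 0.136 ± 0.121 TPM on 0 to 26 counts. In 1 of the 36 libraries SLC16A6 had no count, so its ratios rest on few molecules. Among other SLC16 genes, SLC16A8 (3.07 TPM) lay in the range of SLC16A7, SLC16A14 stood at 0.169 TPM, and SLC16A11 and SLC16A12 (0.122 and 0.0265 TPM) failed the filter on low counts. Where the counting was not strand-specific, reads of overlapping genes on the other strand would be shared. The shared exon length was 3.29% of SLC16A1 (with SLC16A1-AS1), 5.36% of SLC16A3 (with CSNK1D), 4.20% of SLC16A4 (with LAMTOR5-AS1) and 3.55% of SLC16A6 (with ARSG). LAMTOR5-AS1 and ARSG were counted above their SLC16 partners, at medians of 2.51 and 2.44 CPM (counts scaled to library size) against 0.577 and 0.343 CPM, and SLC16A5, SLC16A7, SLC16A9 and SLC16A13 shared no exon with another gene.

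**Figure D1:**
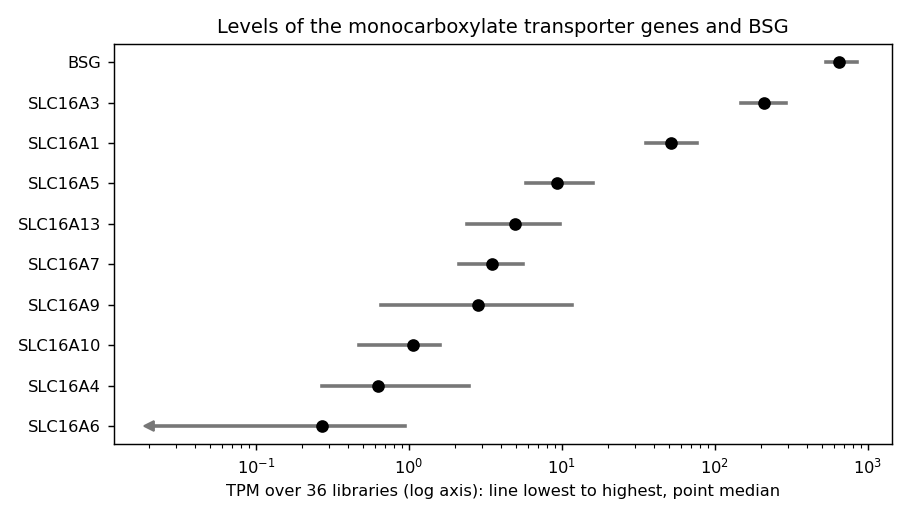
Level of each gene in TPM on a log axis over 36 libraries, with a line from the lowest to the highest library and a point at the median. BSG, SLC16A3, SLC16A1 and SLC16A5 form ranges separate from each other, while SLC16A13 and SLC16A9 reach into the range of SLC16A5 and the lower genes overlap, and the arrow marks SLC16A6, which had 1 library at 0.

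SLC16A9 (ENSG00000165449, chr10:59650761-59736002 on the minus strand) was higher at 10% than at 5% CO2 in each of the 6 pairings of line and LPS state, and higher with LPS at each CO2 level. Values within a gene are given in CPM scaled by edgeR's trimmed mean of M-values (TMM). In shNT cells without LPS, the 3 libraries held 0.943, 1.53 and 1.84 CPM at 5% CO2 and 3.76, 4.83 and 2.82 CPM at 10% CO2. With LPS they held 2.98, 3.65 and 6.83 CPM at 5% CO2 and 11.1, 17.7 and 13.9 CPM at 10% CO2. Every 10% CO2 library thus lay above every 5% CO2 library in both states, and the state with both stimuli lay highest.
In shNR4A2 cells the basal libraries held 0.745, 1.23 and 1.29 CPM at 5% CO2 and 2.11, 2.55 and 2.64 CPM at 10% CO2. With LPS the shNR4A2 libraries held 1.87, 2.43 and 3.34 CPM at 5% CO2 and 6.10, 8.42 and 7.74 CPM at 10% CO2. The order of the states matched that of shNT cells at lower levels.
In shNR4A3 cells the basal libraries held 1.56, 1.43 and 1.21 CPM at 5% CO2 and 3.91, 4.89 and 3.12 CPM at 10% CO2. With LPS the shNR4A3 libraries held 4.50, 3.68 and 8.01 CPM at 5% CO2 and 11.9, 15.5 and 13.0 CPM at 10% CO2. One library of the 5% CO2 and LPS state, replicate 3, was the highest of its state in each of the 3 lines.
As the rule chose it to do, SLC16A9 rose with CO2, by log2 differences of 1.40 in shNT, 1.17 in shNR4A2 and 1.52 in shNR4A3 cells in the basal state and of 1.66, 1.53 and 1.31 with LPS. The average over the 6 comparisons was 1.43 (SE 0.12), the second largest rise of 17720 genes, while within single comparisons it ranked between 33 and 160. The share of all genes whose 10% CO2 libraries all lay above the 5% CO2 libraries was 10.2%, 6.41% and 11.1% in the basal state and 15.3%, 10.8% and 12% with LPS, in the same order of lines. Ordered by mean, the 12 conditions ran from 1.09 CPM in shNR4A2 cells at 5% CO2 to 14.2 CPM in shNT cells at 10% CO2 with LPS. Neighbouring conditions in this order overlapped except at 2 steps. The first separated the 3 basal 5% CO2 conditions from the rest, and the other separated shNT and shNR4A3 cells with both stimuli from all others.

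**Figure D2:**
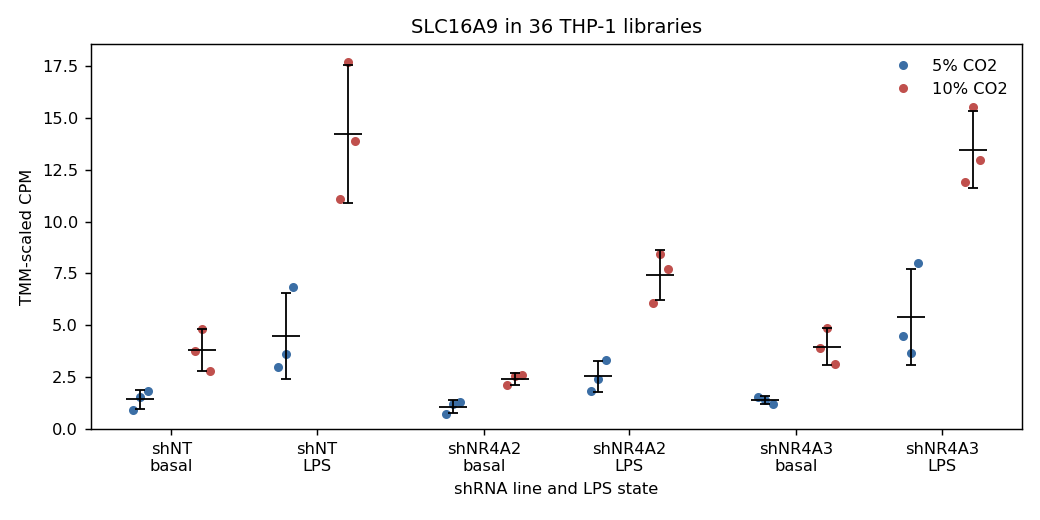
SLC16A9 in TMM-scaled CPM in each of 36 libraries, by shRNA line and LPS state, blue at 5% and red at 10% CO2, with bars for the mean and SD of 3 libraries. The 10% CO2 libraries lie above the 5% CO2 libraries in each of the 6 pairings, and the highest values, 11.1 to 17.7 CPM, are those of shNT and shNR4A3 cells with both 10% CO2 and LPS.

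LPS raised SLC16A9 in all 6 comparisons within a line and a CO2 level. In shNT cells the log2 difference was 1.66 (SE 0.34, edgeR adjusted p = 0.00346) at 5% CO2 and 1.92 (SE 0.21, adjusted p = 1.69e-06) at 10% CO2. In shNR4A2 cells it was 1.23 (SE 0.32, adjusted p = 0.0140) and 1.61 (SE 0.20, adjusted p = 1.20e-05), and in shNR4A3 cells 1.95 (SE 0.31, adjusted p = 0.000499) and 1.77 (SE 0.17, adjusted p = 2.07e-06). LPS and unstimulated libraries did not overlap in any of the 6. The share of all genes whose LPS libraries all lay above was 18.3%, 21.3%, 16.8%, 22.0%, 19.4% and 24.5% in these comparisons. LPS is a broad stimulus in these cells, and the share of all genes called was 22.9%, 31.2%, 18.2%, 35.0%, 25.3% and 42.1% in the same order. Averaged over the 6 comparisons the rise was 1.69 (SE 0.12, adjusted p = 7.89e-14), and 754 other genes rose more. The call in shNR4A2 cells at 5% CO2 was lost without replicate 1 of the unstimulated libraries (log2 1.01, adjusted p = 0.0642) or replicate 3 of the LPS libraries (log2 1.00, adjusted p = 0.0655).

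SLC16A9 was lower in shNR4A2 than in shNT cells where both stimuli were present. The log2 difference there was -0.94 (SE 0.18, edgeR adjusted p = 0.00311), with 18.9% of all genes called in this comparison and no overlap between the 6 libraries, as for 36.4% of all genes. It was -0.40 (adjusted p = 0.561) at 5% CO2, -0.64 (adjusted p = 0.106) at 10% CO2 and -0.80 (adjusted p = 0.201) at 5% CO2 with LPS. At 5% CO2 with LPS the same-numbered libraries deviated together, and with the replicate number as a block the difference was -0.79 (adjusted p = 0.00185). The block raised the calls over all genes there from 1101 to 4369 of 17720. At 10% CO2 without LPS the difference passed without replicate 3 of the shNT libraries (log2 -0.81, adjusted p = 0.0401). Between shNR4A3 and shNT cells the differences of SLC16A9 were small, from -0.08 to 0.28 over the 4 states, with adjusted p of 0.731 to 0.972. The shNR4A2 and shNR4A3 lines were not tested against each other. Whether the LPS response of SLC16A9 differed between lines was tested directly, and its interaction terms of -0.41 to 0.31 all had an adjusted p of 0.945 or more.

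Among the 9 relatives, SLC16A1 (ENSG00000155380, chr1:112911847-112957013 on the minus strand) lay higher at 10% CO2 in every pairing, by a much smaller step than SLC16A9. In the basal state at 5% CO2 the shNT libraries held 67.1, 72.3 and 78.4 CPM of SLC16A1, and at 10% CO2 94.8, 93.0 and 86.1 CPM. With LPS they held 66.5, 77.7 and 76.7 CPM at 5% CO2 and 91.8, 96.2 and 92.9 CPM at 10% CO2. All 10% CO2 libraries of shNT cells lay above all 5% CO2 libraries in both states.
shNR4A2 cells held 53.2 to 66.2 CPM at 5% CO2 and 68.9 to 76.9 CPM at 10% CO2 without LPS, and 59.0 to 67.1 against 68.4 to 78.2 CPM with LPS. shNR4A3 cells held 77.9 to 83.1 CPM at 5% and 89.5 to 102 CPM at 10% CO2 without LPS, and 73.1 to 84.8 against 87.3 to 97.7 CPM with LPS. The ranges did not overlap in any of the 6 comparisons, where 6.41% to 15.3% of all genes had every 10% CO2 library above every 5% CO2 library.
The log2 differences of SLC16A1 lay between 0.23 and 0.35. One passed the test, in LPS-stimulated shNT cells (0.35, SE 0.08, edgeR adjusted p = 0.0205), where 8.19% of all genes were called. It was lost without replicate 1 of the 5% CO2 libraries (adjusted p = 0.0896) or replicate 2 or 3 of the 10% CO2 libraries (adjusted p = 0.0871 and 0.0633). This was the only call among the 54 pairings of the 9 relatives with the 6 comparisons, a share of 1.85% beside 2.05% over all genes. By comparison, 0.615% of all genes were called in shNT, 0.0113% in shNR4A2 and 1.13% in shNR4A3 cells in the basal state, and 0.198% in shNR4A2 and 2.13% in shNR4A3 cells with LPS, so the relatives were not called more often than other genes. Averaged over all 36 libraries the rise of SLC16A1 was 0.29 (SE 0.036, adjusted p = 1.52e-07), a fold of 1.22.

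SLC16A3 (ENSG00000141526, chr17:82228397-82261129 on the plus strand), the lactate exporter, had the opposite sign. In shNT cells it held 595, 502 and 442 CPM at 5% CO2 and 471, 413 and 535 CPM at 10% CO2 without LPS, ranges that overlap. With LPS the shNT libraries held 781, 642 and 652 CPM at 5% CO2 and 612, 459 and 544 CPM at 10% CO2, ranges that do not, as for 29.9% of all genes. The log2 difference in the latter state was -0.36 (SE 0.11, edgeR adjusted p = 0.0706), and it passed without replicate 1 of the 10% CO2 libraries (log2 -0.46, adjusted p = 0.0279) and with DESeq2 (adjusted p = 0.0186). The other 5 differences of SLC16A3 lay between -0.25 and -0.03. Averaged, SLC16A3 fell by 0.20 on the log2 scale (SE 0.053, adjusted p = 0.00316).
SLC16A5 also fell on average, by 0.19 (SE 0.058, adjusted p = 0.00983), and lost the call when genes of low counts were kept in the test (adjusted p = 0.0514). Its differences were uneven, from -0.43 in basal shNR4A3 and -0.41 in LPS-stimulated shNT cells to -0.02 in basal shNR4A2 cells. In LPS-stimulated shNR4A3 cells the difference was 0.10, the only rise. SLC16A6 rose on average by 0.76 (SE 0.23, adjusted p = 0.00933) at levels under 1.02 CPM. Its difference was -0.97 in LPS-stimulated shNR4A3 cells and 0.46 to 1.56 in the other comparisons. These 4 calls of 9 relatives stand beside 36.4% of all genes called in the averaged CO2 contrast, and 2 rose while 2 fell, beside 17.0% of all genes that rose and 19.4% that fell. The remaining relatives did not pass, with log2 differences of 0.31 for SLC16A4, 0.20 for SLC16A10, -0.17 for SLC16A13, -0.06 for SLC16A7 and -0.03 for BSG. SLC16A4 passed without replicate 3 of shNT at 5% CO2 (0.50, adjusted p = 0.0255), the library with 41 counts, and SLC16A10 without replicate 3 of shNR4A2 at 5% CO2 (0.28, adjusted p = 0.0128). The chaperone BSG held 595.9 to 858.1 CPM over all libraries, and its 6 CO2 differences lay between -0.12 and 0.07.

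**Figure D3:**
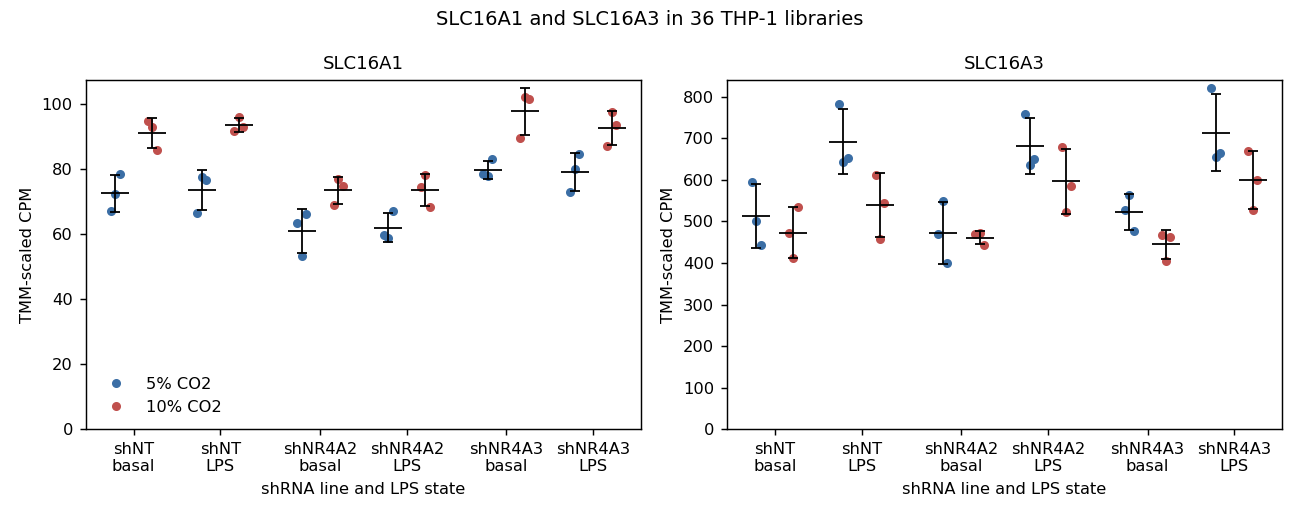
SLC16A1 (left) and SLC16A3 (right) in TMM-scaled CPM in each of 36 libraries, by shRNA line and LPS state, blue at 5% and red at 10% CO2, with bars for the mean and SD of 3 libraries. SLC16A1 lies higher at 10% CO2 in each pairing. By condition mean SLC16A3 lies higher with LPS, with overlapping libraries in shNT cells at 10% CO2.

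**Figure D4:**
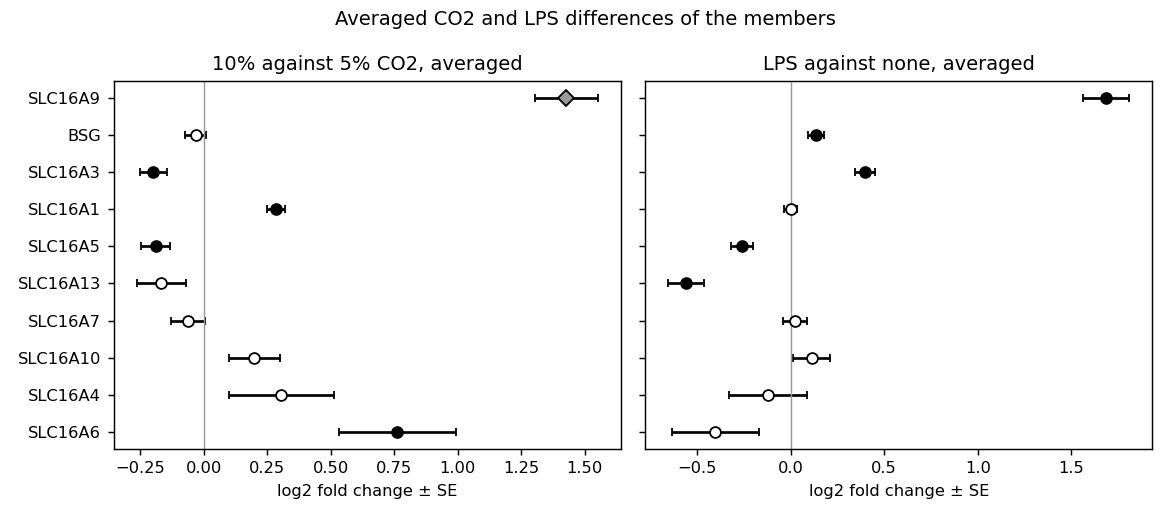
Log2 fold changes with SE for each gene, averaged over the 6 CO2 comparisons (left) and the 6 LPS comparisons (right), filled where edgeR's adjusted p was under 0.05 and open where not. The grey diamond is SLC16A9 under CO2, which chose the gene and has no test, and its rise of 1.43 exceeds the 0.76 of SLC16A6 and the 0.29 of SLC16A1.

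With LPS, SLC16A9 and SLC16A3 rose and SLC16A13 and SLC16A5 fell in the averaged contrast, while SLC16A1 did not pass. Of 60 pairings of 10 genes with 6 LPS comparisons, 18 were called (30%), beside 29.1% over all genes, so the share itself is at the background. SLC16A9 took 6 of these calls and SLC16A3 took 5. SLC16A3 rose in shNT cells at 5% CO2 (log2 0.44, SE 0.11, edgeR adjusted p = 0.00788), in shNR4A2 cells at 5% CO2 (0.52, adjusted p = 0.0141) and 10% CO2 (0.38, adjusted p = 0.0136), and in shNR4A3 cells at 5% CO2 (0.45, adjusted p = 0.00574) and 10% CO2 (0.45, adjusted p = 0.00116). In shNT cells at 10% CO2 its difference was 0.20 (adjusted p = 0.198), with overlapping libraries. Unstimulated shNR4A2 libraries held 400 to 549 CPM at 5% CO2 and 443 to 471 CPM at 10% CO2, and their LPS counterparts 635 to 758 and 522 to 680 CPM. Unstimulated shNR4A3 libraries held 478 to 563 and 405 to 468 CPM, and their LPS counterparts 656 to 819 and 528 to 668 CPM. The LPS libraries of both knockdown lines thus lay above the unstimulated ones at each CO2 level, as for 16.8% and 22.0% of all genes in shNR4A2 and 19.4% and 24.5% in shNR4A3 cells at 5% and 10% CO2.
Of the 5 SLC16A3 calls, 3 were lost when 1 library was left out, which also leaves fewer libraries to test. The log2 difference stayed between 0.27 and 0.45 in the fits that lost a call. The call in shNT cells was lost without replicate 2 at 5% CO2 (adjusted p = 0.0575). In shNR4A2 cells at 5% CO2 it was lost without unstimulated replicate 3 (0.0797) or LPS replicate 1 (0.0625), and at 10% CO2 without unstimulated replicate 3 (0.0570) or LPS replicate 1 (0.0557), all as adjusted p. Scaling by library size alone shifts the median of all genes with LPS by -0.18 to -0.25 on the log2 scale, and under it 4 of the 5 calls were lost. Averaged over the lines, SLC16A3 rose by 0.40 (SE 0.053, adjusted p = 4.40e-08), and by 0.19 under that scaling, where the median of all genes was -0.222.

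SLC16A13 (ENSG00000174327, chr17:7036075-7040121 on the plus strand) moved the other way with LPS. In shNR4A3 cells at 10% CO2 it held 4.20, 4.30 and 4.86 CPM without and 2.30, 1.68 and 3.31 CPM with LPS, a log2 difference of -0.85 (SE 0.23, edgeR adjusted p = 0.00809). In shNT cells at 10% CO2 it held 2.22, 2.37 and 3.26 CPM without and 1.70, 1.72 and 1.51 CPM with LPS (log2 -0.66, adjusted p = 0.0479). In shNR4A2 cells at 10% CO2 it held 3.83, 3.12 and 4.19 CPM without and 2.26, 2.06 and 2.45 CPM with LPS (log2 -0.71, adjusted p = 0.0197). The libraries did not overlap in any of these 3 comparisons, as for 52.0%, 44.5% and 47.1% of all genes in the same order.
At 5% CO2 the differences were -0.39, -0.30 and -0.38 in shNT, shNR4A2 and shNR4A3 cells and did not pass. The LPS response was not shown to depend on CO2, since the averaged LPS-by-CO2 term of SLC16A13 was -0.39 (SE 0.19, adjusted p = 0.348). Averaged over the lines and CO2 levels SLC16A13 fell by 0.56 (SE 0.096, adjusted p = 5.11e-06). The call in shNT cells was lost without unstimulated replicate 2 or 3 or any of the 3 LPS libraries (adjusted p = 0.0669 to 0.203), with DESeq2 (adjusted p = 0.173), with DESeq2's scaling in edgeR (0.0529) and with no filter on low counts (0.0736). The call in shNR4A2 cells was lost without unstimulated replicate 3 (adjusted p = 0.0875) or LPS replicate 2 (adjusted p = 0.0797) and with DESeq2 (adjusted p = 0.0685).

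SLC16A5 (ENSG00000170190, chr17:75087727-75106162 on the plus strand) fell with LPS at 10% CO2 in shNT cells, from 9.31 to 11 CPM to 6.45 to 7.57 CPM (log2 -0.53, SE 0.15, edgeR adjusted p = 0.0101). In shNR4A2 cells at 10% CO2 it went from 7.94 to 10.5 CPM to 6.10 to 7.09 CPM (log2 -0.44, SE 0.16, adjusted p = 0.0413). The libraries did not overlap in either, as for 44.5% and 47.1% of all genes, while the difference in shNR4A3 cells at 10% CO2 was 0.24 (adjusted p = 0.249). Averaged, SLC16A5 fell by 0.26 (SE 0.058, adjusted p = 0.000192). The shNT call was lost without LPS replicate 2 (adjusted p = 0.0538). The shNR4A2 call was lost without any LPS library or without unstimulated replicate 2 or 3 (adjusted p = 0.0703 to 0.179) and with DESeq2 (adjusted p = 0.102).
SLC16A6 passed in shNR4A3 cells at 10% CO2, from 0.575, 1.02 and 0.734 CPM to 0.236, 0.325 and 0.108 CPM (log2 -1.77, SE 0.51, adjusted p = 0.0131), on 2 to 26 counts per library. It was lost without unstimulated replicate 2 (adjusted p = 0.0694) and with DESeq2 (adjusted p = 0.0557).
BSG passed in the same comparison, from 620.5, 637.9 and 639.4 CPM to 710.8, 767.6 and 754.2 CPM (log2 0.25, SE 0.062, adjusted p = 0.00499). This call was lost in one fit over all 36 libraries (adjusted p = 0.0709) and under scaling by library size alone (adjusted p = 0.990). On average BSG rose by 0.14 (SE 0.042, adjusted p = 0.00550), but under scaling by library size alone its averaged difference was -0.08, so its direction rests on the scaling. SLC16A1 did not pass in any LPS comparison, and its averaged difference was -0.00027 (SE 0.036, adjusted p = 0.995), or -0.21 under scaling by library size alone (adjusted p = 1.90e-05), close to the shift of all genes. SLC16A4, SLC16A6, SLC16A7 and SLC16A10 did not pass in the averaged contrast either, with differences of -0.12, -0.40, 0.02 and 0.11. Under scaling by library size alone SLC16A6 (-0.61, adjusted p = 0.0211) and SLC16A7 (-0.19, adjusted p = 0.0186) passed, and SLC16A6 also passed without replicate 2 of shNT at 5% CO2 (-0.48, adjusted p = 0.0492), the library with no count. In total 5 of the 10 members passed in the averaged LPS contrast, 3 higher and 2 lower, beside 64.6% of all genes, 30.5% higher and 34.1% lower.

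**Figure D5:**
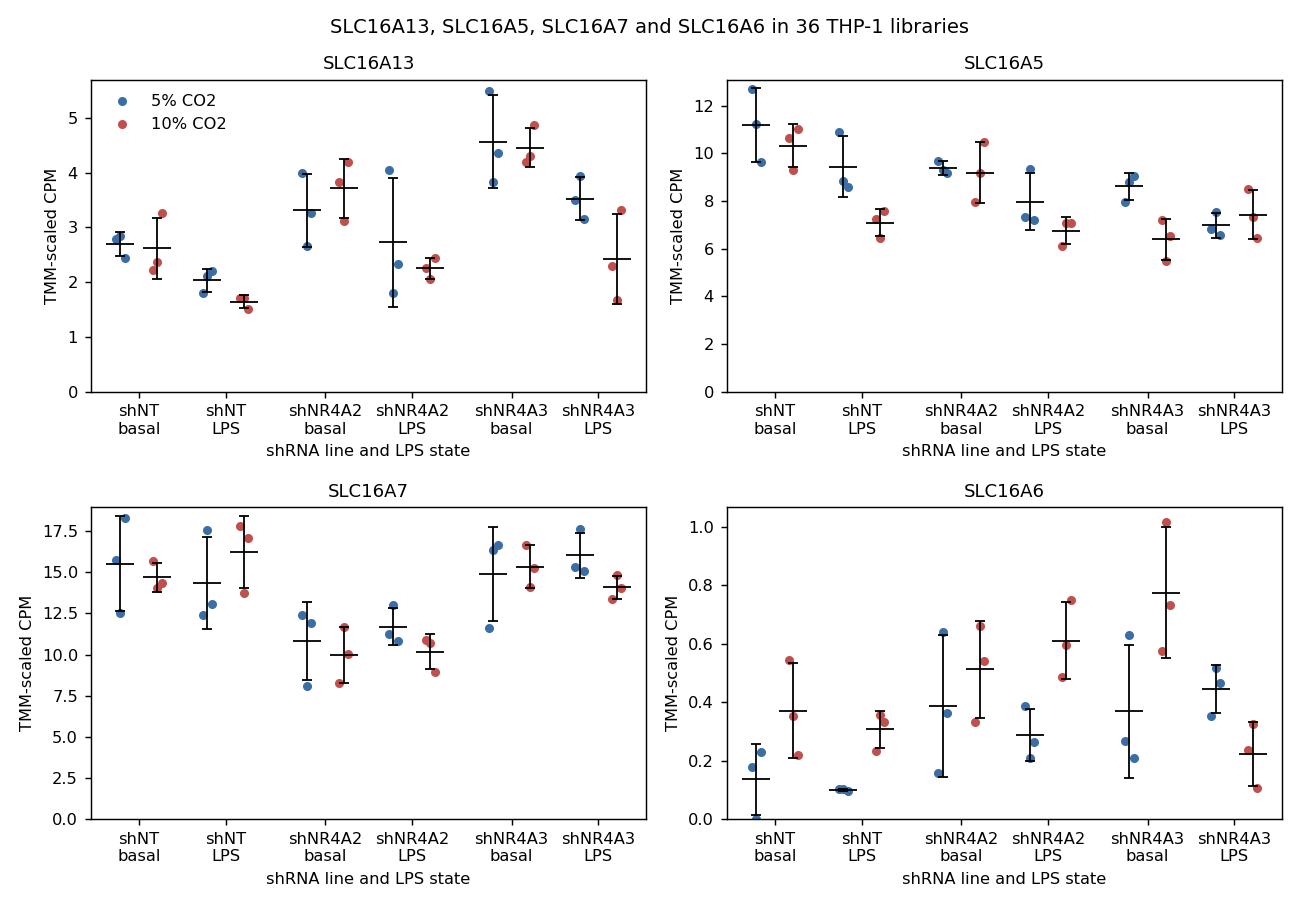
SLC16A13, SLC16A5, SLC16A7 and SLC16A6 in TMM-scaled CPM in each of 36 libraries, by shRNA line and LPS state, blue at 5% and red at 10% CO2, with bars for the mean and SD of 3 libraries. By condition mean, SLC16A13 lies higher in shNR4A3 than in shNT cells and SLC16A7 lower in shNR4A2 than in shNT cells, and SLC16A6 stays under 1.02 CPM throughout.

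The knockdown comparisons called 7 of 80 pairings of 10 genes with 8 comparisons (8.75%), beside 8.96% over all genes. For shNR4A2 cells the share of all genes called was 5.69% at 5% CO2 and 6.21% with LPS, and for shNR4A3 cells it was 5.41% at 5% CO2 with LPS and 14.5% at 10% CO2 with LPS. In shNR4A2 cells the calls of the fit without a replicate block were all lower and all at 10% CO2. At 5% CO2, where same-numbered libraries deviated together, SLC16A1 and SLC16A7 were also lower and passed with the block. With LPS at 5% CO2, SLC16A1 and SLC16A9 did so too. The calls are therefore not limited to 10% CO2. The high-affinity carrier SLC16A7 (ENSG00000118596, chr12:59596067-59789855 on the plus strand) held 15.7, 14.1 and 14.3 CPM in shNT and 8.27, 11.7 and 10.0 CPM in shNR4A2 cells at 10% CO2 (log2 -0.56, SE 0.15, edgeR adjusted p = 0.0243, 7.95% of all genes called). With LPS at 10% CO2 it held 17.8, 13.7 and 17.1 against 10.9, 10.7 and 8.93 CPM (log2 -0.68, SE 0.13, adjusted p = 0.00333). SLC16A7 thus lay lower in every shNR4A2 library of both states, and groups did not overlap for 25.4% and 36.4% of all genes there. The call without LPS was lost without shNT replicate 1 or 2 (adjusted p = 0.0721 and 0.0748) or shNR4A2 replicate 1 or 3 (adjusted p = 0.130 and 0.0924) and under scaling by library size alone (0.0504), and that with LPS was kept without each library in turn.
SLC16A1 was lower with both stimuli, at 68.4 to 78.2 CPM in shNR4A2 against 91.8 to 96.2 CPM in shNT cells (log2 -0.35, SE 0.075, adjusted p = 0.00615). At 5% CO2 without LPS its difference was -0.25 (adjusted p = 0.252) and that of SLC16A7 -0.52 (adjusted p = 0.135). Same-numbered libraries deviated together there, and with the replicate number as a block both passed (adjusted p = 0.0276 for SLC16A1 and 0.00226 for SLC16A7). Over all genes the block raised the calls from 1008 to 3803 of 17720 in this comparison. SLC16A1 likewise passed only with the block at 5% CO2 with LPS, where the difference was -0.24 (adjusted p = 0.194, and 0.0107 with the block). Calls over all genes rose there from 1101 to 4369. For SLC16A1 at 10% CO2 without LPS the difference was -0.32 (SE 0.11, edgeR adjusted p = 0.0832), with no overlap, as for 25.4% of all genes. It passed with DESeq2 (adjusted p = 0.0475) and in one edgeR fit over all 36 libraries (adjusted p = 0.0153). SLC16A10 had no overlap at 10% CO2, with 2.44 to 3.30 CPM in shNR4A2 and 4.14 to 4.83 CPM in shNT cells, and did not pass (log2 -0.64, SE 0.21, adjusted p = 0.0626).

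In shNR4A3 cells SLC16A13 was higher than in shNT cells. At 5% CO2 it held 5.50, 3.83 and 4.36 CPM against 2.78, 2.85 and 2.44 CPM (log2 0.77, SE 0.21, edgeR adjusted p = 0.0395, 6.19% of all genes called). At 10% CO2 it held 4.20, 4.30 and 4.86 CPM against 2.22, 2.37 and 3.26 CPM (log2 0.76, SE 0.20, adjusted p = 0.0281, 6.85% of all genes called). With LPS the differences were 0.79 at 5% CO2 (adjusted p = 0.0580) and 0.57 at 10% CO2 (adjusted p = 0.194). All 4 differences had the same sign.
The first call was lost without any of the shNT libraries or without shNR4A3 replicate 1 or 3 (adjusted p = 0.0773 to 0.177), with DESeq2 (adjusted p = 0.0695) and under scaling by library size alone (0.0510). The second was lost without shNT replicate 1 or 2 or any shNR4A3 library (adjusted p = 0.0550 to 0.120) and with DESeq2 (adjusted p = 0.0613).
SLC16A5 was lower in shNR4A3 cells at 10% CO2, at 7.18, 5.47 and 6.51 CPM against 10.7, 9.31 and 11 CPM in shNT cells (log2 -0.71, SE 0.15, adjusted p = 0.00668). This call was lost without shNR4A3 replicate 2 (adjusted p = 0.0535). At 5% CO2 with LPS, where same-numbered libraries of shNT and shNR4A3 cells deviated together, the block brought 3 genes past the threshold. Over all genes it raised the calls there from 958 to 3312 of 17720. The 3 genes are named next. These were SLC16A13 (0.79, adjusted p = 0.0177), SLC16A6 (2.07, adjusted p = 0.0457, from 0.0623) and SLC16A5 (-0.43, adjusted p = 0.0361, from 0.127). SLC16A3 and BSG did not pass in any knockdown comparison. BSG in shNR4A3 cells at 10% CO2 (-0.21, adjusted p = 0.269) passed without shNT replicate 1 (-0.33, adjusted p = 0.0123).

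None of the 40 LPS-by-line pairings of the 10 genes and none of the 36 CO2-by-line pairings of the 9 relatives passed in edgeR, at a background of 0.0607% and 0% of all genes. The LPS terms called 0.0451% of all genes for shNR4A2 and 0.198% for shNR4A3 cells at 10% CO2, and 0% for both at 5% CO2. Before adjustment, 2 pairings in each family had a p below 0.05, and DESeq2 called 0 in both. The averaged LPS-by-CO2 interaction called 0 of 9 relatives beside 1.99% of all genes, with 1 below 0.05 before adjustment and 0 called by DESeq2. For SLC16A6 the CO2 term of LPS-stimulated shNR4A3 against shNT cells was -2.51 (SE 0.79, adjusted p = 1). Its 5% and 10% CO2 libraries with LPS did not overlap in shNT, shNR4A3 or shNR4A2 cells, as for 29.9%, 25.1% and 21.4% of all genes. For SLC16A5 the LPS term of shNR4A3 against shNT cells at 10% CO2 was 0.76 (SE 0.21, adjusted p = 0.243), and it passed with the replicate number as a block (0.76, adjusted p = 0.0427). With the block 179 of 17720 genes were called for this term, against 35 without it.

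Genes that handle the cargo of these carriers were counted from fixed lists in the averaged contrasts. Of 12 tested genes of lactate and pyruvate metabolism, 2 rose and 6 fell with CO2, a median of -0.09 on the log2 scale beside -0.00417 over all genes and 36.4% of genes called. MPC1, a subunit of the mitochondrial pyruvate carrier, rose by 0.22 and PDHA1, of pyruvate dehydrogenase, by 0.10. The kinases that inhibit pyruvate dehydrogenase, PDK4 and PDK1, fell by 0.95 and 0.36, and PDHB fell by 0.15. With LPS 4 rose and 5 fell, among them MPC1 (0.48), PDHA1 (0.23) and LDHB (0.16) higher and PDK4 (-2.89), PDK2 (-0.60) and PDHB (-0.17) lower, beside 64.6% of genes called. PDK4 thus fell with both stimuli, and MPC1 rose with both.
Of 7 ketone body genes none passed with CO2, while 3 rose and 3 fell with LPS, beside 36.4% and 64.6% of all genes called. HCAR2, the receptor of beta-hydroxybutyrate and niacin, rose by 4.86, OXCT1 by 0.22 and ACAT1 by 0.08, and among those that fell were OXCT2, by 1.25, and BDH1, by 0.59. The enzymes of this list thus moved in both directions.
Of 10 carnitine and creatine genes, the cargo linked to SLC16A9, 2 rose and 5 fell with CO2 and 2 rose and 6 fell with LPS. Over all genes 17.0% rose and 19.4% fell with CO2, and 30.5% rose and 34.1% fell with LPS. The list medians were -0.16 with CO2 and -0.15 with LPS, beside -0.00417 and -0.0108 over all genes. The carnitine carrier SLC22A5 rose by 0.20 with CO2 and fell by 0.90 with LPS, and GATM, of creatine synthesis, rose by 0.25 with CO2. The creatine carrier SLC6A8 fell by 0.55 with CO2, SLC22A4 by 0.49 and carnitine acetyltransferase CRAT by 0.36. With LPS SLC25A20 fell by 0.42 and CPT2 by 0.36, and CKB and GAMT rose by 0.37 and 0.14. The list as a whole thus did not follow the direction of SLC16A9.
Of 6 amino acid exchangers listed beside SLC16A10, SLC3A2 rose by 0.27 with CO2 and the rest did not pass, beside 36.4% of all genes called. With LPS SLC43A2 rose by 1.42, SLC7A5 by 0.50 and SLC3A2 by 0.20, and SLC43A1 fell by 0.32 and SLC7A6 by 0.18. NPTN, a relative of BSG, rose by 0.11 with LPS, and neither SLC16A8 nor SLC16A14 passed in either averaged contrast.

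The genes whose 12 condition means were most like those of SLC16A9 were not carriers. Over 13976 genes, the highest Pearson correlations of log2 CPM were 0.987 for RPF2, a ribosome assembly factor, 0.987 for the valyl-tRNA synthetase gene VARS1, 0.986 for ZC3H15, 0.981 for CCT3, a subunit of the TRiC chaperonin, and 0.980 for the methionyl-tRNA synthetase gene MARS1. Their averaged rises were 0.19 to 0.37 with CO2 and 0.20 to 0.35 with LPS, far below those of SLC16A9. Their condition means thus varied together with those of SLC16A9 but over a smaller span. Among the members the correlation was 0.63 for SLC16A1, 0.59 for SLC16A10, 0.44 for BSG, 0.34 for SLC16A3, 0.26 for SLC16A7, -0.60 for SLC16A13 and -0.63 for SLC16A5. The 12 points share libraries' depth and scaling, and these values are a description without a test.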

How the data were processed

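Poly(A) RNA of 36 THP-1 libraries was sequenced. Per the submitters' processing notes, reads were trimmed with Trimmomatic 0.36, aligned to GRCh38 with STAR 2.5.2b and counted with featureCounts (Subread 1.5.2). The deposited values are raw counts per Ensembl gene, and the annotation release and strand setting are not given in the sources used here. Symbols were matched for 98.1% of 57500 IDs. TPM was computed from counts and exon lengths in the files.

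Genes were filtered with filterByExpr (minimum count 10), scaled by TMM and tested with edgeR 4.0.16 (R 4.3.3, robust quasi-likelihood F test) on the libraries of each comparison, or on all 36 libraries for averaged contrasts. Adjusted p (Benjamini-Hochberg over 17720 genes) under 0.05 was a call. The study itself used DESeq2, here an alternative (version 1.42.0). A change in RNA per cell and one in the share of cells cannot be told apart in bulk RNA. Replicates differed by more than sampling noise in all 36 pairs (chi-square per degree of freedom 6.62 or more). The scripts were tested on simulated data. Alternatives were scaling, tool, filter, replicate block, one fit over all libraries, a stricter threshold and leaving out each replicate.

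Same-numbered libraries were taken as paired where each of the 3 correlations of their deviations from the group means was over 0.1, which held in 7 of 20 comparisons (CO2 1 of 6, LPS 3 of 6, knockdown 3 of 8). Named were the 10 members, other SLC16 genes, NR4A2 and NR4A3, up to 3 called genes per direction of each fixed list by adjusted p, and the 5 genes most like SLC16A9; some items that this rule names are not reported here. Members and lists were chosen with earlier results of these data known. Upstream windows came from RefSeq (GRCh38.p14).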

Additional observations from a re-analysis of the deposited data

Results flagged for a closer look

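The CO2 difference of SLC16A6 in LPS-stimulated cells had opposite signs between lines, and in none of the 3 lines did it pass. Its edgeR adjusted p was 0.154 in shNT, 0.287 in shNR4A2 and 0.398 in shNR4A3 cells. In shNT cells the log2 difference of 10% against 5% CO2 was 1.56, with 0.0975 to 0.103 CPM at 5% CO2 and 0.235 to 0.355 CPM at 10% CO2. In shNR4A2 cells it was 1.10, with 0.211 to 0.386 against 0.488 to 0.749 CPM. In shNR4A3 cells it was -0.97, with 0.355 to 0.516 against 0.108 to 0.325 CPM. Every 10% CO2 library lay above every 5% CO2 library in shNT and shNR4A2 cells and below in shNR4A3 cells, which marked it for a closer look. Of all genes, 29.9%, 21.4% and 25.1% had no overlap in these 3 comparisons. These values rest on 2 to 15 counts per library. The interaction term between shNR4A3 and shNT cells was -2.51 (SE 0.79, edgeR adjusted p = 1), so the difference did not pass over all genes, and that between shNR4A3 and shNR4A2 cells was not tested.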

How the results depend on the processing

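For the 9 relatives under CO2 (1 call), DESeq2 gave 3, no filter on low counts 4, the replicate block 3 and one fit over all 36 libraries 2. An adjusted p under 0.01 gave 0, and leaving out a replicate gave 0 to 2. Over all genes the 6 CO2 comparisons called 2 to 1452 each in the main fit, 43 to 1801 with DESeq2 and 87 to 2238 with no filter. With the block they called 144 to 1568, and in one fit 58 to 1289. For LPS (18 calls) an adjusted p under 0.01 gave 10, and leaving out a replicate gave 15 to 18. For knockdown (7 calls) the replicate block gave 18, one fit over all libraries 12 and an adjusted p under 0.01 gave 4. Leaving out a replicate gave 5 to 8. Over all genes the 8 knockdown comparisons called 958 to 3344 each in the main fit, 2107 to 6161 with the block and 1055 to 3038 in one fit. The block thus raised the calls of all genes too. The block added 1 LPS-by-line call to 0, SLC16A5 in shNR4A3 cells at 10% CO2 (0.76, adjusted p = 0.0427). There it called 179 of all genes, against 35 without it. Where numbers were not paired, the block also brought in SLC16A3 in shNT cells with LPS under CO2 (adjusted p = 0.0151), SLC16A1 in shNR4A3 cells under CO2 (0.0207), SLC16A3 in shNT cells at 10% CO2 under LPS (0.0353), SLC16A9 and SLC16A10 in shNR4A2 cells at 10% CO2 (0.0469 and 0.0239), SLC16A10 in shNR4A2 cells at 10% CO2 with LPS (0.0285) and SLC16A3 in shNR4A3 cells at 10% CO2 with LPS (0.0270). It ended no call. The averaged LPS difference of BSG reversed to -0.0754 under scaling by library size alone, and the cause was not tested beyond the shift of -0.222 in all genes. The SLC16A9 CO2 difference, as the median of 6 comparisons, was 1.46, and 1.37 to 1.53 without 1 replicate. Over the single-gene calls, 239 results under other settings kept their direction and call, 29 kept the direction and lost the call and 1 reversed, and without 1 replicate 441 kept both and 39 lost the call. The causes were not tested. SLC16A4 and SLC16A6, on 0 to 41 counts per library, were the members with the lowest depth.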

Other observations

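The ratio of SLC16A1 to SLC16A3 CPM within a library, chosen after the values were seen and not tested, was higher at 10% than at 5% CO2 and lower with LPS by the means of 3 libraries. Single libraries overlapped between CO2 levels in basal shNT and basal shNR4A2 cells. Between LPS states they overlapped in shNT and shNR4A2 cells at each CO2 level. In shNT cells the mean ratio was 0.145 at 5% and 0.196 at 10% CO2 without LPS, and 0.108 and 0.177 with LPS. In shNR4A2 cells it was 0.133 and 0.160 without and 0.0917 and 0.125 with LPS. In shNR4A3 cells it was 0.154 and 0.221 without and 0.113 and 0.157 with LPS.

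SLC16A8 (MCT3), which encodes a lactate carrier of the retinal pigment epithelium, was lower in shNR4A3 than in shNT cells at 10% CO2 without LPS (log2 -0.99, SE 0.29, edgeR adjusted p = 0.0446), at 0.780 to 0.821 CPM against 1.36 to 1.76 CPM, with 6.85% of all genes called in this comparison. Its other 7 knockdown differences did not pass.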
